A study of Mus musculus with 25 samples.

Results

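The 33 genes described here encode the parts of the Notch pathway and the neurogenins, out of 18820 genes named by single-symbol transcript clusters on the array. They were chosen by name: every cluster with one of the listed symbols was taken, 36 in all, and a gene with more than 1 cluster was read from its brightest one, whatever its difference between genotypes. By role they fall into 4 receptors, 5 ligands, 8 Hes and Hey repressors, 3 Fringe sugar transferases, 6 regulators of the signal, 4 proteins of the nuclear complex and 3 proneural factors.

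Notch receptors are bound by Delta and Jagged ligands on the neighboring cell, cleaved, and release an intracellular domain that joins RBPJ and a Mastermind protein on DNA and switches on Hes and Hey repressors. In the embryonic neuroepithelium, proneural factors such as the neurogenins activate Delta ligands in cells about to become neurons, while Hes proteins repress proneural genes in the neighbors, which stay progenitors. The loop sets the pace at which a progenitor layer such as the wall of the hypothalamus turns into neurons.

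Total RNA was measured with Affymetrix Mouse Gene 1.1 ST arrays in mammillary neuroepithelium dissected from C57BL/6 mouse embryos at E10.5, the part of the caudal hypothalamic wall that gives rise to the mammillary body. There were 13 arrays labeled Lhx5 KO and 12 labeled WT (wild type), each called a biological replicate; whether an array holds 1 embryo or a pool is not given in the sources used here. KO embryos carry the floxed Lhx5 allele on both chromosomes (Lhx5 fl/fl) without Cre recombination. The allele keeps its exons and is described by the study as a hypomorph, so the transcript of the targeted gene is no check of the labels: Lhx5 stood at 7.82, 7.84 and 8.11 on KO replicates 11 to 13, 7.43 to 8.60 (median 7.96) on KO replicates 1 to 10, and 7.67 to 8.38 (median 7.89) in WT, a difference of -0.04 ± 0.17 (SE). In such bulk tissue, fewer cells of a type and less RNA per cell cannot be told apart.

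All values are log2 expression values made by robust multiarray averaging (RMA), so that a difference of 1 is 2-fold. In the deposited values the mean of KO replicates 1 to 10 matched that of KO replicates 11 to 13 on nearly every probe set (they differed by a median of 1.33e-06 in size over 35542 probe sets). Each difference between KO and WT therefore equals that between KO replicates 11 to 13 and the WT arrays, and the other 10 KO arrays carry no evidence of its direction. Whether KO replicates 11 to 13 and WT differ in processing was not tested. Genes were fitted with limma, with a term that sets KO replicates 1 to 10 apart. A gene was called at an adjusted p below 0.05 over all 28940 clusters, and only called genes are said to have risen or fallen. Array medians ran from 4.64 to 4.76. Markers of the labeled tissue were present, with the mean of 6 genes (Foxb1, Sim1, Lhx1, Lhx5, Nkx2-1 and Shh) at 7.62 to 7.94 on KO replicates 11 to 13, 7.42 to 8.08 on KO replicates 1 to 10 and 7.54 to 8.01 in WT. Differences of these 6 genes ran from -0.33 to 0.33, 3 positive and 3 negative, so their mean does not show that KO and WT tissue matched. All markers of erythroid cells, endothelium and mesenchyme that were measured were also above the median level of all clusters, 4.69, as were 4 of 5 of pericytes (Rgs5 stood at 3.87). KO minus WT was positive for all 8 endothelial, 5 pericyte, 7 mesenchyme, 4 erythroid and 4 surface ectoderm markers. It was negative for all 8 neural progenitor and 6 neuron markers, and positive for 1 of 3 of cranial ganglia. With the term 0 of these were called. The part of tissue composition in the differences of the 33 genes was not tested. Array WT 11 stood apart, with the lowest WT value for 12 of the 33 genes. It also had the lowest WT mesenchyme mean (7.33, others from 7.58) and the highest WT erythroid mean (11.49, others to 11.35). Array KO 10 had the lowest value of KO replicates 1 to 10 for 13 of the 33 genes.

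Of the 33 genes, 30 had mean levels at or above the median of all clusters, and 3 lay below it: Hes3 (mean 3.69), Hes7 (3.75) and Neurog3 (3.40). Hes3 differed by -0.10 ± 0.16 and Hes7 by -0.01 ± 0.11, with 0.20 ± 0.12 for a second cluster of Hes7. In the fit with the term for KO replicates 1 to 10, no gene of the pathway was called higher or lower in the KO. That is 0 of 33 by limma, against 7 of all 28940 clusters (0.0242%). At an unadjusted p below 0.05 there were 3 of 33 (9.09%), with Dll4 and Maml2 higher (6.2% of all clusters) and Dtx3 lower (4.15%), against 10.3% of all clusters in either direction, so that the share among the pathway genes was near the background. Among the 14470 clusters at or above the median level, where these 3 genes lie, 3.32% were higher and 6.25% lower. The exact permutation test over the 455 ways to take 3 of these 15 arrays (KO replicates 11 to 13 and WT), whose smallest possible p is 0.0022, gave the same 3 genes a p below 0.05, against 10.2% of all clusters, and 0 of 33 after adjustment, against 0% of all clusters. In 0 of 33 genes did KO replicates 11 to 13 all lie above or all lie below the 12 WT arrays, against 1.15% of clusters. With genotype as the only term, which counts KO replicates 1 to 10 as evidence, limma called 5 genes (15.2%; 16.7% of clusters): Notch2, Dll4, Hey1 and Maml2 higher (9.68% of clusters) and Dtx3 lower (6.99%) in the KO. Of the clusters at or above the median level, where all 5 lie, 5.34% were higher and 10.4% lower in that fit.

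The intervals limit what could have been missed. The 95% interval of the difference excluded a 2-fold change in either direction for 33 of 33 genes and a 1.5-fold change for 26. These intervals are of the array values. For Hes3, Hes7 and Neurog3, with levels below the median of all clusters, they may not bound a change of the transcript. Leaving out 1 array moved the difference by over 1.5 times or turned it for 23 of the 33 genes, none of them called in any fit. The 7 whose interval reached 1.5-fold were Dll3, Hes5, Hes6, Heyl, Nrarp, Neurog1 and Neurog3.

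**Figure D1:**
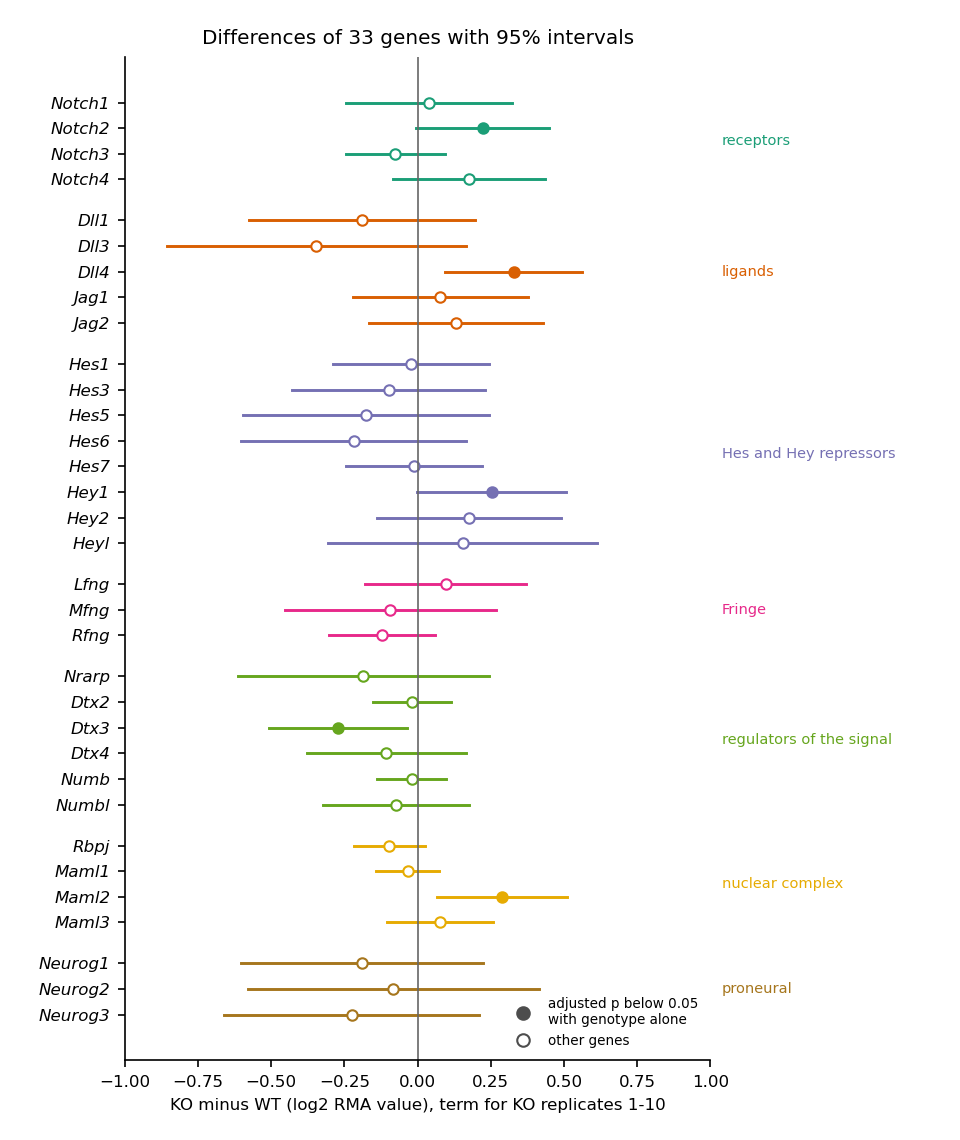
Difference between KO and WT (x axis, log2 RMA value; positive is higher in KO) for the 33 genes by role, as points with 95% intervals from limma with a term for KO replicates 1 to 10. Filled points are the 5 genes with an adjusted p below 0.05 in the fit with genotype alone; none passed with the term, and every interval stays inside 1 on either side.

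Of the receptors, 0 of 4 were called with the term. Notch1, the main receptor of neural progenitors, measured 10.01, 9.82 and 9.93 on KO replicates 11 to 13, 9.52 to 10.21 (median 9.92) on KO replicates 1 to 10, and 9.38 to 10.12 (median 9.89) in WT. KO replicates 11 to 13 lay within the WT range, and the difference was 0.04 ± 0.14 (SE; 95% interval from -0.24 to 0.32; adjusted p = 0.956). Notch2 measured 9.18, 9.36 and 9.15 on KO replicates 11 to 13, 9.07 to 9.47 (median 9.22) on KO replicates 1 to 10, and 8.66 to 9.23 (median 9.09) in WT. Of KO replicates 11 to 13, 1 array lay above all WT arrays and the other two within their range. The difference of 0.22 ± 0.11 (95% interval from -0.01 to 0.45) had an unadjusted p = 0.0552, adjusted p = 0.496, and 0.0242 with genotype alone. Notch3, found in neural progenitors and in vascular mural cells, differed by -0.08 ± 0.08 (adjusted p = 0.805). Notch4, a receptor of endothelial cells, measured 6.20, 5.98 and 6.18 on KO replicates 11 to 13, 5.76 to 6.52 (median 6.11) on KO replicates 1 to 10, and 5.40 to 6.25 (median 5.94) in WT, with overlapping groups and a difference of 0.18 ± 0.13 (adjusted p = 0.676). The median difference of the 4 receptors was 0.11, against 0.0052 over all clusters and -0.02 over those at or above the median level.

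Among the ligands, 0 of 5 were called with the term, with negative differences for Dll1 and Dll3 and positive ones for Dll4, Jag1 and Jag2. Dll1, the Delta ligand that proneural factors activate in nascent neurons, measured 8.07, 7.91 and 8.39 on KO replicates 11 to 13, 7.31 to 8.51 (median 8.25) on KO replicates 1 to 10, and 7.98 to 8.74 (median 8.26) in WT. Of KO replicates 11 to 13, 1 array lay below every WT array, while another was above the WT median. The difference was -0.19 ± 0.19 (95% interval from -0.57 to 0.20; adjusted p = 0.784), and -0.09 without array KO 12 or -0.32 without KO 13. Dll3, a divergent Delta protein that acts within the cell that makes it, measured 7.12, 6.95 and 7.06 on KO replicates 11 to 13, 6.09 to 7.68 (median 7.16) on KO replicates 1 to 10, and 6.78 to 8.07 (median 7.28) in WT. All 3 of KO replicates 11 to 13 were below the WT median but inside the WT range, and the difference of -0.35 ± 0.25, the most negative of the 33, had the widest interval, from -0.86 to 0.16 (adjusted p = 0.674).

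Dll4, the Delta ligand of arterial and sprouting endothelium that neural progenitors of some regions also use, measured 5.90, 5.75 and 6.03 on KO replicates 11 to 13, 5.73 to 6.19 (median 5.84) on KO replicates 1 to 10, and 5.11 to 5.86 (median 5.63) in WT. Of these 3 KO arrays 2 were above the highest WT array and the remaining one lay within the WT range. The difference of 0.33 ± 0.11 was the most positive of the 33 (95% interval from 0.09 to 0.56, or 1.07- to 1.48-fold). It had an unadjusted p = 0.00775, adjusted p = 0.283, an exact permutation p of 0.0264 over these 15 arrays, and an adjusted p of 0.00218 with genotype alone. The 8 endothelial markers (Pecam1, Cdh5, Kdr, Tek, Tie1, Esam, Cldn5 and Emcn) had differences of 0.05 to 0.29, all 8 positive and 0 called with the term. With genotype alone 2 of the 8 were called higher (9.68% of all clusters). The mean level of the 8 was 7.47 to 7.84 on KO replicates 11 to 13 and 6.79 to 7.65 in WT. Array WT 11 had the 6.79 and the other 11 WT arrays began at 7.43. Without WT 11 the difference of Dll4 was 0.29 (adjusted p = 0.234). The part of endothelial content in the Dll4 result was not tested. Jag1, a Jagged ligand, measured 8.16, 8.37 and 8.62 on KO replicates 11 to 13, 7.99 to 8.87 (median 8.35) on KO replicates 1 to 10, and 7.91 to 8.71 (median 8.28) in WT, a difference of 0.08 ± 0.15 with overlapping groups (adjusted p = 0.899). Jag2 differed by 0.13 ± 0.14 (adjusted p = 0.808), and by 0.07 without array WT 11.

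The repressors downstream of the receptors gave no called difference either. Hes5, the Hes gene most tightly tied to Notch activity in neural progenitors, measured 8.26, 8.06 and 8.61 on KO replicates 11 to 13, 7.50 to 8.71 (median 8.52) on KO replicates 1 to 10, and 8.14 to 8.86 (median 8.45) in WT. Of KO replicates 11 to 13, 1 array was below every WT array and another was above the WT median. The difference was -0.18 ± 0.20 (95% interval from -0.60 to 0.24; adjusted p = 0.821), and -0.05 without array KO 12 or -0.33 without KO 13. Hes1, which is also driven by other signals and keeps boundary and progenitor cells undifferentiated, measured 7.23, 7.42 and 7.28 on KO replicates 11 to 13, 7.05 to 7.54 (median 7.33) on KO replicates 1 to 10, and 6.87 to 7.75 (median 7.31) in WT, with KO replicates 11 to 13 inside the WT range and a difference of -0.02 ± 0.13 (adjusted p = 0.972). Hes6, which is made in differentiating cells and counteracts Hes1, measured 7.77, 7.56 and 7.68 on KO replicates 11 to 13, 7.02 to 8.04 (median 7.77) on KO replicates 1 to 10, and 7.44 to 8.36 (median 7.82) in WT, a difference of -0.22 ± 0.19 with overlapping groups (adjusted p = 0.74). The Hey genes, prominent in vessels, all had positive differences. Hey1 measured 8.30, 8.24 and 8.37 on KO replicates 11 to 13, 7.89 to 8.58 (median 8.31) on KO replicates 1 to 10, and 7.83 to 8.63 (median 7.96) in WT. All 3 of KO replicates 11 to 13 were above the WT median, but 2 WT arrays stood at 8.32 and 8.63. Its difference of 0.25 ± 0.12 had an unadjusted p = 0.0505, adjusted p = 0.484, and 0.0215 with genotype alone. Hey2 and Heyl differed by 0.18 ± 0.15 and 0.15 ± 0.22 (adjusted p = 0.742 and 0.863), and by 0.11 and 0.04 without array WT 11. Of the pericyte markers, 5 of 5 had positive differences, with a median of 0.38, and 0 were called with the term. By limma with the term, 2 of the 5 were higher at an unadjusted p below 0.05 (6.2% of all clusters). With genotype alone 3 of the 5 were called higher (9.68% of all clusters). The mean level of the 5 was 6.34 to 6.78 on KO replicates 11 to 13 and 5.56 (WT 11, others from 6.01) to 6.46 in WT. The part of pericyte content in the values of the Hey genes was not tested.

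Differences of the Fringe enzymes, which add sugars to Notch and change its choice of ligand, ran from -0.12 to 0.10. Lfng, the member that oscillates in somites, measured 8.66, 8.59 and 9.02 on KO replicates 11 to 13, 8.15 to 9.10 (median 8.76) on KO replicates 1 to 10, and 8.38 to 8.90 (median 8.68) in WT. Among the 3 KO arrays, 1 exceeded all WT arrays, and the difference was 0.10 ± 0.13 (adjusted p = 0.857). Mfng differed by -0.09 ± 0.18 and Rfng by -0.12 ± 0.09.

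All 6 regulators of the signal had negative differences, from -0.27 to -0.02, with 0 called with the term. Those of Dtx2 and Numb turned positive without array KO 13 (0.0075 and 0.0038), and that of Dtx2 after quantile normalization (0.013). Dtx3, of the Deltex family of ubiquitin ligases, measured 7.26, 7.41 and 7.59 on KO replicates 11 to 13, 7.20 to 7.66 (median 7.39) on KO replicates 1 to 10, and 7.30 to 7.94 (median 7.75) in WT. Of KO replicates 11 to 13, 1 array lay below all WT arrays and the 2 others below the WT median. Its difference of -0.27 ± 0.11 (95% interval from -0.51 to -0.04) had an unadjusted p = 0.0247, adjusted p = 0.395, an exact permutation p of 0.044, and an adjusted p of 0.00864 with genotype alone. Nrarp, a target of Notch that damps the signal, measured 7.88, 7.84 and 8.25 on KO replicates 11 to 13, 7.05 to 8.49 (median 8.13) on KO replicates 1 to 10, and 7.74 to 8.65 (median 8.18) in WT, a difference of -0.19 ± 0.21 with overlapping groups (adjusted p = 0.813), and of -0.32 without array KO 13. Dtx4 measured 9.56, 9.50 and 9.85 on KO replicates 11 to 13, 9.12 to 10.07 (median 9.72) on KO replicates 1 to 10, and 9.53 to 10.01 (median 9.76) in WT, a difference of -0.11 ± 0.13 with 1 of KO replicates 11 to 13 below the WT arrays (adjusted p = 0.834). Dtx2 and the Notch inhibitors Numb and Numbl lay close to 0, at -0.02 ± 0.06, -0.02 ± 0.06 and -0.07 ± 0.12.

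In the nuclear complex, Rbpj, the DNA-binding factor of the pathway, differed by -0.10 ± 0.06 (adjusted p = 0.599) and the coactivator Maml1 by -0.03 ± 0.05, among the narrowest intervals of the set. A second cluster of Rbpj, at a level of 2.90, differed by 0.10 ± 0.12. Maml2 measured 7.93, 8.13 and 8.14 on KO replicates 11 to 13, 7.70 to 8.33 (median 8.11) on KO replicates 1 to 10, and 7.53 to 8.12 (median 7.75) in WT. Of these 3 KO arrays 2 were above every WT array and the other within their range. The difference of 0.29 ± 0.11 (95% interval from 0.07 to 0.51) had an unadjusted p = 0.0125, adjusted p = 0.324, an exact permutation p of 0.0242, and an adjusted p of 0.00375 with genotype alone. A second cluster of Maml2, of lower level (mean 6.80), differed by -0.03 ± 0.10, and the mean of both by 0.13 (adjusted p = 0.678), so the clusters of this gene disagreed. Maml3 measured 8.06, 8.16 and 8.15 on KO replicates 11 to 13, 7.89 to 8.32 (median 8.09) on KO replicates 1 to 10, and 7.83 to 8.37 (median 8.02) in WT, a difference of 0.08 ± 0.09 (adjusted p = 0.815).

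Of the proneural factors, 0 of 3 were called, and all 3 differences were negative with wide intervals, though that of Neurog1 was 0.02 without array KO 11. Neurog2, the main neurogenin of the forebrain, measured 7.96, 8.03 and 7.98 on KO replicates 11 to 13, 7.21 to 8.64 (median 8.03) on KO replicates 1 to 10, and 7.40 to 8.72 (median 8.06) in WT. KO replicates 11 to 13 lay close together near the middle of the WT range, and the difference was -0.08 ± 0.24 (95% interval from -0.58 to 0.42; adjusted p = 0.943). Neurog1, its close relative, measured 6.55, 7.28 and 7.09 on KO replicates 11 to 13, 6.37 to 7.50 (median 7.09) on KO replicates 1 to 10, and 6.51 to 7.62 (median 7.18) in WT, with 1 of KO replicates 11 to 13 near the lowest WT array and a difference of -0.19 ± 0.20 (95% interval from -0.60 to 0.22; adjusted p = 0.8). Neurog3, a neurogenin of endocrine precursors, differed by -0.22 ± 0.21 at a level below the median (adjusted p = 0.77). The neuron markers (Dcx, Stmn2, Elavl4, Nhlh1, Nhlh2 and Map2) differed by -0.34 to -0.06. The neural progenitor markers differed by -0.73 to -0.03, with 0 called with the term in either list. With genotype alone 2 of the 8 progenitor markers were called lower (6.99% of all clusters) and 0 of the 6 neuron markers. The neuron mean was 7.67 to 7.90 on KO replicates 11 to 13 and 6.96 (WT 11, others from 7.53) to 8.62 in WT. The progenitor mean was 9.54 to 9.80 on KO replicates 11 to 13 and 9.48 to 10.28 in WT. The part of both lists in the values of the neurogenic genes was not tested.

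**Figure D2:**
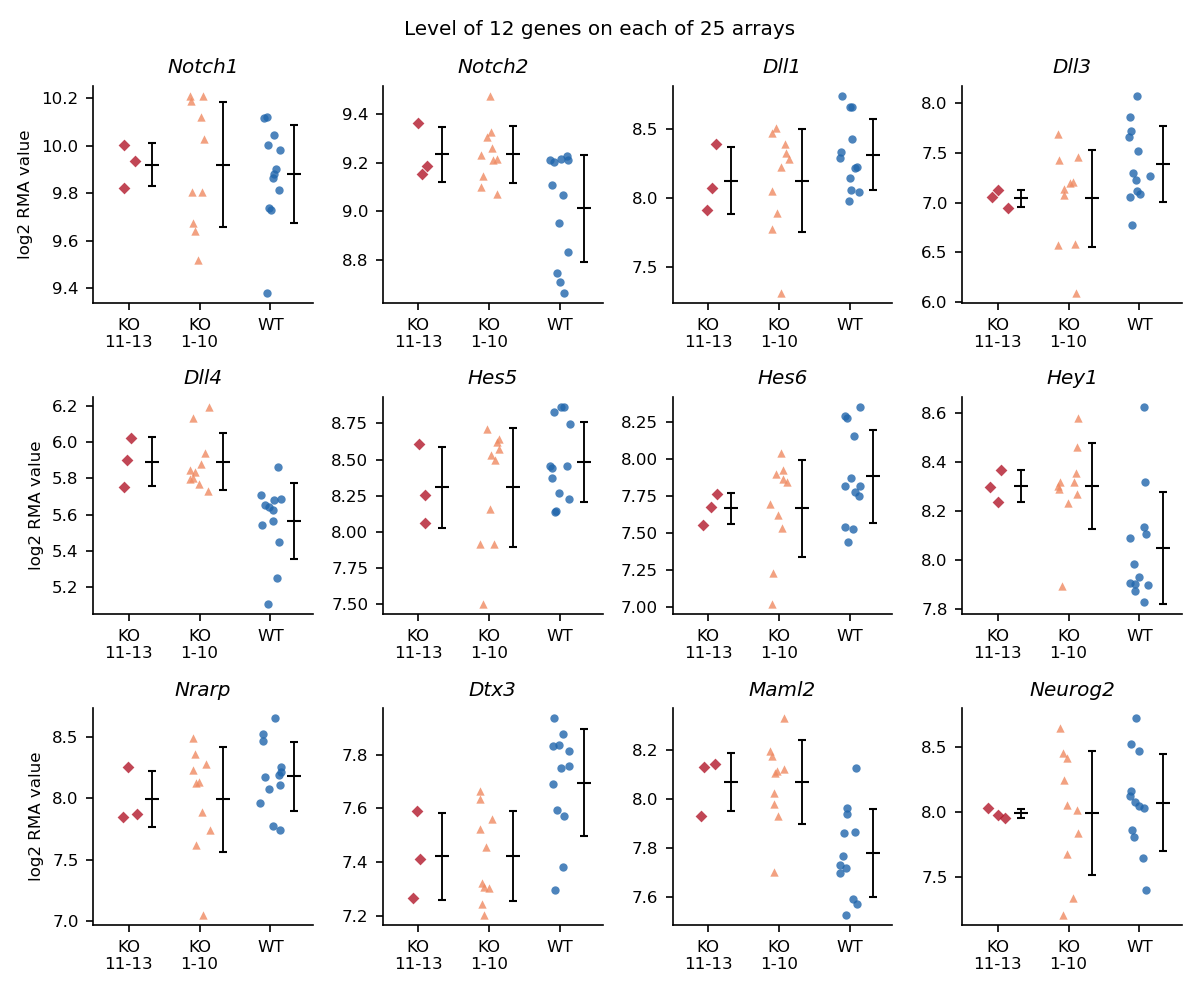
Level (y axis, log2 RMA value) of 12 genes on each of the 25 arrays, with KO replicates 11 to 13 (diamonds), KO replicates 1 to 10 (triangles) and WT (circles); the bars beside the points are the mean ± SD of each set. For Dll4 and Maml2, 2 of the 3 diamonds lie above all WT circles, and for Neurog2 the 3 diamonds lie near the middle of the WT range.

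Other genes of the pathway were read from 5 further lists covering ligand and receptor processing, other regulators and other proneural factors, of which 35 of 40 genes had a single-symbol cluster and the rest were not analysed here. With the term, limma called 0 of 35, and 4 had an unadjusted p below 0.05 (11.4%, near the 10.3% of all clusters). Their median difference was -0.03, as for the 33 genes above (-0.03), against 0.0052 over all clusters and -0.02 over those at or above the median level. Kat2b, a histone acetyltransferase that is recruited to Notch complexes, measured 4.51, 4.79 and 4.98 on KO replicates 11 to 13, 4.52 to 4.90 (median 4.78) on KO replicates 1 to 10, and 4.88 to 5.35 (median 5.05) in WT, and its difference of -0.35 ± 0.10 had the smallest p of the 35 (unadjusted p = 0.00158, adjusted p = 0.185). Of these 3 KO arrays 2 were below every WT array. Id4, a dominant inhibitor of proneural factors, measured 7.41, 6.55 and 6.66 on KO replicates 11 to 13, 6.08 to 8.10 (median 6.86) on KO replicates 1 to 10, and 7.04 to 7.80 (median 7.42) in WT, a difference of -0.58 ± 0.26 (unadjusted p = 0.032, adjusted p = 0.428), again with 2 of KO replicates 11 to 13 below every WT array. Aph1a, a subunit of the γ-secretase that cleaves Notch, and Neurod6, a neuronal differentiation factor whose level was below the median of all clusters (mean 2.40), differed by 0.11 ± 0.05 and 0.21 ± 0.07 (adjusted p = 0.452 and 0.274). With genotype alone, limma called 6 of the 35 (17.1%, near the 16.7% of all clusters), those 4 and the lower Itch (-0.13 ± 0.07), a ligase that targets Notch, and Dlk1 (-0.43 ± 0.24), a non-canonical Delta-like protein.

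Within a genotype, arrays differed among themselves, and several genes of the pathway did so together. Pearson's r and Spearman's rank coefficient were computed for 16 pairs, each between genes or between a gene and the mean level of a marker list. This was done in KO replicates 1 to 10 (n = 10) and in WT (n = 12), 32 tests for each coefficient with p-values adjusted over them. By r, 7 pairs passed in the KO and 12 in WT, 6 of them in both, and by Spearman's coefficient 6 and 10. The counts by r include Dll1 with the neuron markers in both groups and Hes1 with Hes5, of negative r, in WT. The share of other pairs of clusters that would pass this rule was not computed. A constant added to every array of a set does not enter r. Whether r differed between the genotypes was not tested.

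Delta ligand and Hes5 levels moved together in both genotypes. Dll1 and Hes5 had r = 0.97 (permutation p = 2e-05, adjusted p = 0.00064) and a Spearman's coefficient of 0.89 (permutation p = 0.00115, adjusted p = 0.01) in the KO. In WT they had r = 0.86 (permutation p = 0.00045, adjusted p = 0.00213) and a Spearman's coefficient of 0.78 (permutation p = 0.00435, adjusted p = 0.0155). Without the 2 arrays whose Dll1 was farthest from the median, r was 0.94 in the KO and 0.77 in WT. Dll1 and Dll3 had r = 0.94 in the KO and 0.80 in WT, Dll1 and Hes6 0.92 and 0.87, and Hes5 and Nrarp 0.95 and 0.81 (highest adjusted permutation p of these 6 values 0.00536), and their Spearman's coefficients ran from 0.75 to 0.89. Without the 2 farthest arrays these 6 values ran from 0.66 to 0.95, and 3 of them no longer passed (Dll1 and Hes6 in the KO, Dll1 and Dll3 and Hes5 and Nrarp in WT). By Spearman's coefficient, 0 of the 32 tests passed without the 2 farthest arrays.

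Neurog2 was set against Dll1, Dll3 and Hes6, which neurogenins are known to activate. In the KO, r with Dll1, Dll3 and Hes6 was 0.58, 0.56 and 0.72 (adjusted permutation p = 0.0957, 0.115 and 0.0335). In WT it was 0.75, 0.85 and 0.85 (adjusted permutation p = 0.0111, 0.00213 and 0.00213). Spearman's coefficient was 0.60, 0.54 and 0.78 in the KO and 0.66, 0.80 and 0.87 in WT. Without the 2 farthest arrays, r with Dll1 was 0.66 in the KO (adjusted permutation p = 0.131) and 0.62 in WT (0.104), and with Dll3 0.84 in the KO (0.0373) and 0.81 in WT (0.0321), so which pairs passed changed in both groups. After embryo sex was taken out, Dll1 passed in the KO (r = 0.71, adjusted permutation p = 0.0404). With Hes6, r was 0.83 in the KO and 0.83 in WT without the 2 farthest arrays, but did not pass in the KO without array KO 10 (0.62, adjusted permutation p = 0.113). Without KO 10, r with Dll1 and Dll3 in the KO was 0.39 and 0.36 (adjusted permutation p = 0.396 and 0.405). Without WT 11, r with Dll1 and Dll3 in WT was 0.73 and 0.79 (adjusted permutation p = 0.0246 and 0.0142). Neurog1 and Neurog2 did not pass in the KO (r = 0.30) and passed in WT (0.74), a relation that rests on the 2 farthest arrays (0.25 without them).

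Hes1 ran the other way from Hes5, with r = -0.68 in the KO (adjusted permutation p = 0.0504, n = 10) and -0.65 in WT (adjusted permutation p = 0.041, n = 12; -0.66 and 0.0839 without the 2 farthest arrays), of which only the WT value passed. Spearman's coefficient was -0.58 in the KO and -0.69 in WT. Notch1 and Hes5 had r = 0.62 in the KO (adjusted permutation p = 0.0744) and 0.64 in WT (0.0335), with Spearman's coefficients of 0.49 and 0.57, and neither passed without the 2 farthest arrays. Notch3 and Heyl showed no relation that passed in either group.

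The neuron marker mean moved with the same genes. The mean level of the 6 neuron markers had r = 0.86 with Dll1 in the KO (adjusted permutation p = 0.00213, n = 10) and 0.76 in WT (0.00746, n = 12), and with Hes5 0.86 (0.0039) and 0.58 (0.0617; 0.76 and 0.0206 without array WT 11). Spearman's coefficient with Dll1 was 0.72 in the KO and 0.76 in WT, and with Hes5 0.64 and 0.74. Without the 2 farthest arrays none of the 4 passed by r (r from 0.45 to 0.74). Array KO 10, lowest for Dll1, Dll3, Hes5, Hes6 and Nrarp among its set, also had the lowest neuron mean (7.03, others 7.23 to 8.36) and the lowest progenitor mean (9.10, others 9.13 to 9.95). It had the highest endothelial mean of the set (7.82, others 7.38 to 7.76), with pericyte and mesenchyme means within the range of the others. The part of tissue composition in the correlations was not tested.

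The vascular pairs in WT rested on 1 array. Dll4 and Notch4 had r = 0.56 in the KO (adjusted permutation p = 0.127, n = 10) and 0.67 in WT (0.0389, n = 12). With the mean of the endothelial markers, Notch4 had 0.52 in the KO (adjusted permutation p = 0.14) and 0.73 in WT (0.0591), and Dll4 -0.15 (0.729) and 0.66 (0.0585). Spearman's coefficient of the 3 WT pairs was 0.45, 0.24 and 0.19. Without WT 11, the array with the lowest endothelial mean, their r was 0.30, -0.00033 and 0.03.

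**Figure D3:**
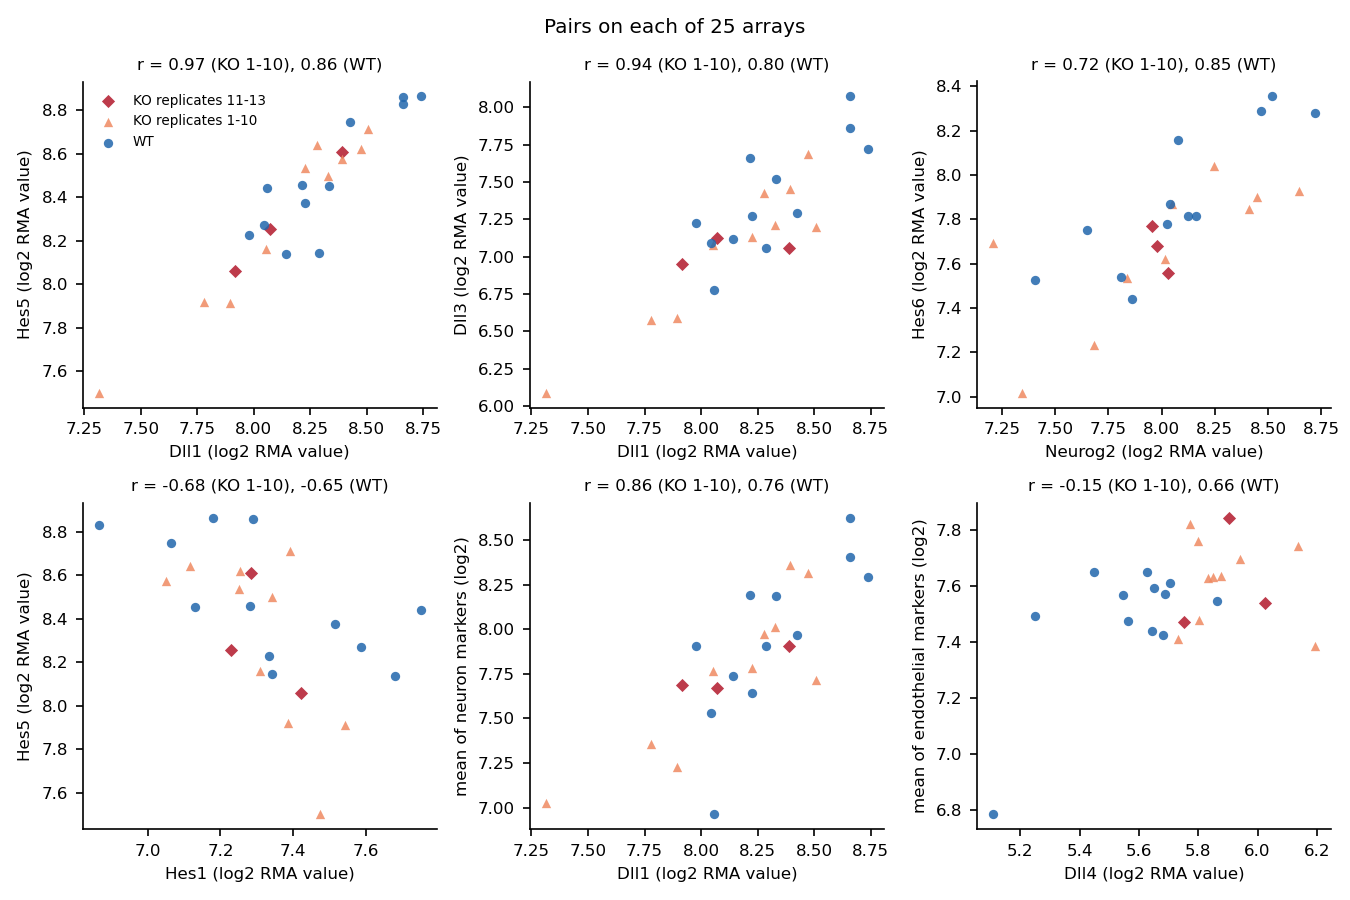
Levels of 6 pairs on each of the 25 arrays (both axes log2 RMA values or means of them), with KO replicates 11 to 13 (diamonds), KO replicates 1 to 10 (triangles) and WT (circles) and Pearson's r of the last 2 sets above each panel. Dll1 and Hes5 rise together (r = 0.97 and 0.86), and in the panel of Dll4 a single WT array lies far below the rest.

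A matrix over the 30 genes at or above the median level was read as a description, with no test. Of its 435 pairs, 57 (13.1%) had r above 0.7 in KO replicates 1 to 10 and 34 (7.82%) in WT, where 3.22% and 2.26% of all pairs of clusters at such levels did. Pairs above 0.7 in both numbered 21, which is 36.8% of the KO pairs and 61.8% of the WT pairs. Dll1, Dll3, Hes5, Hes6 and Nrarp, singled out after the values were seen, made up 10 of them, since each of their 10 pairs was above 0.7 in both groups (0.84 to 0.97 in the KO and 0.71 to 0.92 in WT). Without arrays KO 10 and WT 11 these ran from 0.67 to 0.96 in the KO and from 0.76 to 0.95 in WT.

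**Figure D4:**
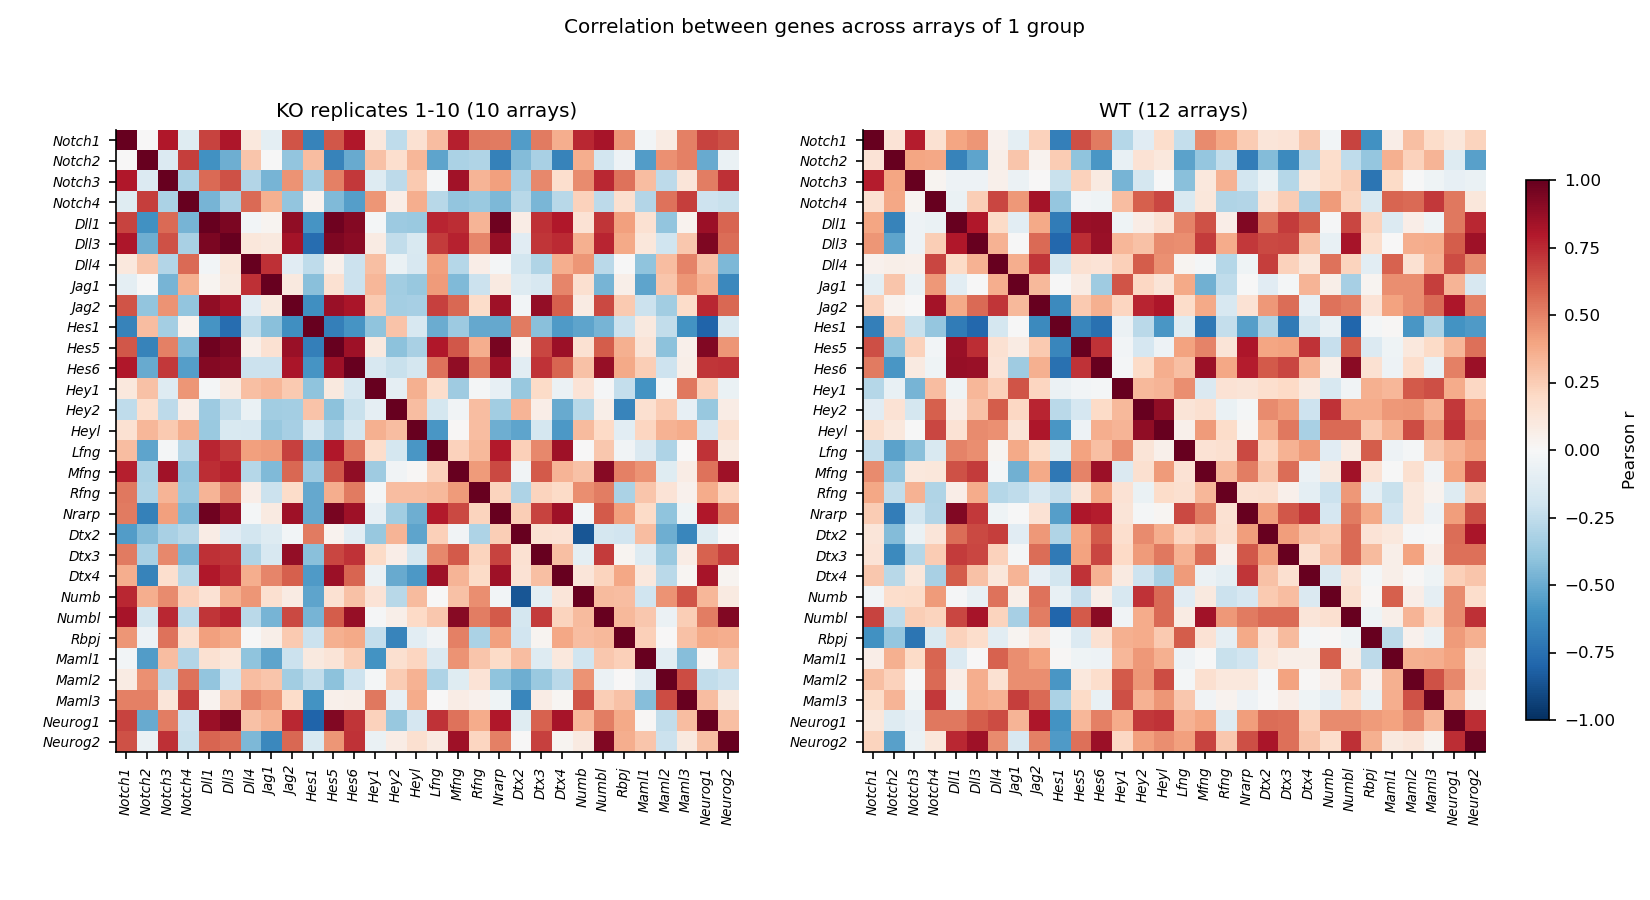
Pearson's r (color, from -1 in blue to 1 in red) between each pair of the 30 genes at or above the median level, across KO replicates 1 to 10 (left) and WT (right), with genes in order of role on both axes. Dll1, Dll3, Hes5, Hes6 and Nrarp form a red group in both panels, and Hes1 is mostly blue against them.

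Sequences around a transcription start are shown for these 5 genes because their levels moved together. Each is the RefSeq window (GRCm38.p6) from 250 bases before to 50 after a transcription start, printed 5' to 3' on the strand of the gene. For Hes5, capitals mark TGGGAA, the core of the RBPJ binding motif, or its reverse complement.

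Hes5 (chr4:154960673-154960972, plus strand): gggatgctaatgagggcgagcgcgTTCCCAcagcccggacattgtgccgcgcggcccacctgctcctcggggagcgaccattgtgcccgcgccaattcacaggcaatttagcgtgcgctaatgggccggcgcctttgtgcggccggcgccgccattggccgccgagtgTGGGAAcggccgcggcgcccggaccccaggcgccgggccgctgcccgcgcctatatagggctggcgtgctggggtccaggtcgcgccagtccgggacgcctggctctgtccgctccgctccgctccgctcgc

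For the other 4, which held no TGGGAA on either strand, capitals mark the E-box CANNTG, the motif class of proneural factors. Dll1 and Hes6 have 2 listed windows each, of which the first listed is shown. The printed windows hold 1 CANNTG for Dll1, 2 for Dll3, 3 for Hes6 and 2 for Nrarp, and the windows not printed hold 3 for Dll1 and 1 for Hes6. The Hes5 window also holds 1 CANNTG, at -194, which is not marked. The printed windows of Dll1 and Hes5 lie inside the spans of these genes, whose outer starts are at 15376932 and 154960626. The Dll1 window not printed covers that outer start.

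Dll1 (chr17:15375774-15376073, minus strand): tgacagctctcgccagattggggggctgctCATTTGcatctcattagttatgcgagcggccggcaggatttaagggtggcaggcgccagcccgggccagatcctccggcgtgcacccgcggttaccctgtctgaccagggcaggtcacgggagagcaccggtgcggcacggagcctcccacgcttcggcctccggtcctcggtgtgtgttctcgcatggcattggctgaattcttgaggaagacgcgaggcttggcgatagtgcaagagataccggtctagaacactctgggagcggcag

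Dll3 (chr7:28301736-28302035, minus strand): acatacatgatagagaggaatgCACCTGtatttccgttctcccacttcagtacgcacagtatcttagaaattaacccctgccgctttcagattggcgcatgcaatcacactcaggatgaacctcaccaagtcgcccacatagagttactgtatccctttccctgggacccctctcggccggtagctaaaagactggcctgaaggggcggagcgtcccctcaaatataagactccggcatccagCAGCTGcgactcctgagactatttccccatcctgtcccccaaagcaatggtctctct

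Hes6 (chr1:91413989-91414288, minus strand): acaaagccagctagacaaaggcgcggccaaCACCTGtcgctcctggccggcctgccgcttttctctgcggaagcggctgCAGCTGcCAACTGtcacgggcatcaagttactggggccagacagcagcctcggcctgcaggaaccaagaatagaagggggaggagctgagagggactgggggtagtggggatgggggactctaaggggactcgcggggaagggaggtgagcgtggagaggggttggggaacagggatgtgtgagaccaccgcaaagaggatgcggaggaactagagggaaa

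Nrarp (chr2:25180508-25180807, plus strand): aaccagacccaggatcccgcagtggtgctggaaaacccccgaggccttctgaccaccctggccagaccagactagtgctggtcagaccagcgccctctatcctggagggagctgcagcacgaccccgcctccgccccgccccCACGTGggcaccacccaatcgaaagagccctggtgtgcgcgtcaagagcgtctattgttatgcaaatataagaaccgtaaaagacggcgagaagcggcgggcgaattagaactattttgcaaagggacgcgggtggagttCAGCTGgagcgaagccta

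Of the 33 genes, 26 had a listed window, 32 windows in all, and 9 of these windows, from 8 genes, held TGGGAA on one strand or the other, against 25.6% of all 32851 listed windows. The Hes5 window held 2, which begin at positions -226 and -82 relative to the start. CANNTG, which reads the same on both strands, was in 22 of the 32 windows, from 18 genes, and in 72.3% of all windows, and no CANNTG in the 5 windows printed overlapped a TGGGAA. These matches describe letters only.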

How the data were processed

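Per the file headers and the study's methods, the authors hybridised total RNA to Affymetrix Mouse Gene 1.1 ST arrays and deposited log2 expression values from robust multiarray averaging (RMA), with Affymetrix Expression Console 1.0 and R 2.7.0 among the tools named in the submitters' processing notes. The build is not given in the sources used here. The 14 cells above 14, which the deposited log2 scale does not reach, were set missing, and none was in a cluster used here. Of 35556 probe sets, 6616 with low identifiers were left out and 28940 tested with limma 3.58.1 in R 4.3.3 (lmFit and eBayes, Benjamini-Hochberg adjustment, two-sided). The model had genotype and an indicator for KO replicates 1 to 10. Correlations used 100000 resamples, whose smallest p is 1e-05. Genes given on every array were those called in any fit over all arrays, those with an unadjusted p below 0.05, the brightest of each role and those of pairs that passed. Members and lists were chosen with earlier results of these data known. Alternatives left out arrays one by one, quantile-normalized or centred arrays, left out dim clusters, weighted arrays, dropped the moderation, added embryo sex (inferred from Xist and Y-linked transcripts) or averaged a gene's clusters. Each array was given 1 sex, by a split at the largest gap, which would not hold if arrays held pools of embryos. Read as female were 8 of 12 WT arrays, 2 of 3 of KO replicates 11 to 13 and 3 of 10 of KO replicates 1 to 10. The number of arrays limits the precision, and p-values measure only the spread between these arrays.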

Additional observations from a re-analysis of the deposited data

Results flagged for a closer look

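In KO replicates 1 to 10, 3 of the 33 genes tested had 1 array whose gap to the nearest other array, divided by the range of the 10, was above the 95% critical value of Dixon's test. Chance gives such a gap in about 1 in 20 groups. Only KO replicates 1 to 10 were read this way, and no share over all clusters is given, so the count does not set KO apart from WT. Array WT 11 also lay far from the other WT arrays for Jag2 (5.32, next 5.81) and Hey2 (5.84, next 6.41). Hes3, a dim gene, was highest in KO replicate 3, at 4.41, with the next array at 3.81. Hey1 was lowest in KO replicate 6, at 7.89, with the next at 8.23. Lfng was lowest in KO replicate 10, at 8.15, with the next at 8.63.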

How the results depend on the processing

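No gene of the set was called with the term under any alternative that kept it. With genotype alone 5 were called, and 3 had an unadjusted p below 0.05. Of all clusters, 7 were called with the term, against 4825 with genotype alone, 1 after quantile normalization, 12 on centred arrays, 4 without dim clusters, 30 with array weights, 3 without moderation, 2995 at an unadjusted p below 0.05, and 0 (without KO replicate 13) to 26 (without WT replicate 10) with 1 array left out. Replicate numbers are shared by KO and WT arrays, but deviations of same-numbered arrays correlated at -0.33 to 0.43 over 12 numbers, above 0.1 for 4 and best with their own number for 0, so they share only a number. With a block for the replicate number, where the difference rests on numbers 11 and 12, limma called 0 genes of the set and 0 clusters. Each difference then sets KO 11 and KO 12 against WT 12 and WT 11, the array that stood apart. Under that block these differences changed sign: Notch1 -0.10, Dll3 0.0012, Jag1 -0.17, Hes6 0.024, Hes7 0.21, Mfng 0.18, Dtx2 0.084, Numb 0.059, Numbl 0.047, Rbpj 0.016, Neurog1 0.044, Neurog2 0.47 and Neurog3 0.30. The sign also changed after quantile normalization for Hes1 (0.0078) and Dtx2 (0.013), with array weights for Hes1 (0.00072) and Hes7 (0.038), and with the mean of clusters for Hes7 (0.093). With 1 array left out, Notch1 ran from -0.0068 to 0.088, Jag1 from -0.043 to 0.19, Hes1 from -0.078 to 0.018, Hes7 from -0.14 to 0.12, Lfng from -0.035 to 0.18, Dtx2 from -0.043 to 0.0075, Numb from -0.035 to 0.0038 and Neurog1 from -0.34 to 0.020. The cause was not tested. Of 16 pairs, 11 passed by r in KO replicates 1 to 10 after embryo sex was taken out, and 4 in WT without the 2 farthest arrays. Correlations changed sign for Neurog1 and Neurog2 in the KO (-0.093) and for Dll4 and the endothelial mean in the KO (0.29) and in WT (-0.22) without the 2 farthest arrays, for Dll4 and that mean in the KO after embryo sex (0.028), and without array WT 11, an alternative chosen after seeing the data, for Notch3 and Heyl (0.32) and Notch4 and the endothelial mean (-0.00033).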

Other observations

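Beside the pairs among Dll1, Dll3, Hes5, Hes6 and Nrarp and the pair Neurog2 and Hes6, 10 pairs had r above 0.7 across both KO replicates 1 to 10 and WT, given as a description over 10 and 12 arrays, with no test. Hes6 and Numbl, the Numb-like adaptor, had r of 0.87 in KO replicates 1 to 10 and 0.90 in WT. Mfng, a Fringe enzyme, had 0.91 and 0.84 with Numbl, and 0.89 and 0.85 with Hes6. Numbl had 0.92 and 0.73 with Neurog2, and 0.76 and 0.83 with Dll3. The Deltex gene Dtx4 had 0.86 and 0.72 with Hes5 and 0.85 and 0.72 with Nrarp, and Dtx3 had 0.73 and 0.70 with Dll1. The receptors Notch1 and Notch3 had 0.80 and 0.79, and the ligand Jag2 and Neurog1 had 0.75 and 0.81. Array WT 11 was the lowest WT array for both Jag2 (5.32, others from 5.81) and Neurog1 (6.51, others from 6.99). The r of Jag2 and Neurog1 without WT 11 was not computed. Below -0.7 in both stood a single pair, Dll3 and Hes1, at -0.76 in KO replicates 1 to 10 and -0.78 in WT.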
